A study of Mus musculus with 8 samples.

Results

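The 9 genes described here encode core parts of the elastic fibre, its microfibril scaffold and the enzymes that crosslink it: Eln, Fbln5, Mfap4, Fbn1, Mfap2, Mfap5, Emilin1, Lox and Loxl1. They were named by symbol and looked up by Ensembl gene ID, and all 9 of the 11447 gene IDs in the deposited tables were found; all 9 also passed the filter of the fits, which kept 9253 genes. The study profiled smooth muscle cells from the ascending part of the mouse aorta one by one, by droplet RNA sequencing (10x Genomics Chromium) of sorted GFP-positive cells. It had 8 libraries, 1 for each of 2 genotypes on 4 diets. The mutant libraries (KO) came from Apoe-/- mice with a knockout of the TGF-beta receptor Tgfbr2 in smooth muscle cells, on the diet labelled ND or after 1, 2 or 4 months of high fat diet (HFD), called 1M, 2M and 4M. The Apoe libraries came from Apoe-/- mice on the same 4 diets, so both genotypes lack Apoe. The labels give neither the driver of the knockout, nor the number of animals behind a library, nor their ages, and the months on HFD cannot be told apart from the passing of time.

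Elastic fibres give large arteries their recoil. Smooth muscle cells secrete tropoelastin, the soluble elastin monomer, which is deposited on a scaffold of fibrillin microfibrils with the help of fibulins and microfibril-associated proteins and is then crosslinked by lysyl oxidases. In the aortic wall the fibres form the elastic lamellae, most elastin is made around birth, and mutations in several of these genes cause aneurysms or narrowing of large arteries in humans or mice.

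The 8 libraries held 13056 cells, from 1127 to 2659 a library, with 9407155 to 19719335 unique molecular identifiers (UMIs, each counting 1 captured RNA molecule) in all and a median of 6966 to 10988 UMIs per cell. Pairs of libraries shared 0 to 9 cell barcodes, 121 over the 28 pairs. Levels are the UMIs of the gene in every 1000000 UMIs of the library (CPM). With 1 library for each genotype and diet there is no replicate error for a single library, and the intervals given cover counting error only. The summed level of 13 contractile smooth muscle markers was 51997, 48970, 45343 and 1941 CPM in KO ND, 1M, 2M and 4M, against 40297, 42566, 38875 and 28198 CPM in the Apoe libraries, so KO 4M stood apart. All 13 were listed in every library except KO 4M, where Myocd and Des were at 0. The 12 chondrocyte markers summed to 58.6, 53.0, 1499 and 34593 CPM in KO, against 72.4, 45.6, 98.3 and 4458 CPM in Apoe, and the 8 fibroblast markers to 111, 591, 3409 and 11978 CPM in KO, against 100.1, 109, 158 and 3887 CPM in Apoe. The cartilage collagen Col2a1 was listed at 0 in KO ND and 1M and in Apoe ND, 1M and 2M. Of 11 macrophage markers 6 were in the tables; they summed to at most 455 CPM (KO 1M) in KO and were listed at 0 in Apoe. Of the 8 endothelial markers Pecam1 alone was listed (at most 34.0 CPM in KO and 69.3 CPM in Apoe), of the 6 Schwann cell markers Ncam1 and S100b (341 to 499 CPM in KO and 507 to 637 CPM in Apoe), and of the 7 lymphocyte markers none. The 5 pericyte markers summed to 236 to 423 CPM in KO and 468 to 572 CPM in Apoe. The part of other cells in the differences below was not tested, and the targeted gene could not be used to check the labels because Tgfbr2 had values for Apoe cells alone.

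Eln (chr5:134702593-134747323, minus strand, GRCm38) encodes elastin, the elastic core of the fibre. Its level was 714, 574, 368 and 55.0 CPM in KO ND, 1M, 2M and 4M. In Apoe it was 3436, 1899, 2362 and 1717 CPM in ND, 1M, 2M and 4M. The groups did not overlap: the highest KO library lay well under the lowest Apoe library, and within KO each later diet had a lower value. For this gene and the members below, the share of all genes with no such overlap was not counted. KO over Apoe, the ratio was 0.208 (95% interval 0.203 to 0.213) in ND, 0.302 (0.294 to 0.310) in 1M, 0.156 (0.152 to 0.160) in 2M and 0.0320 (0.0300 to 0.0341) in 4M. The 4M pair therefore differed most, and it is also the pair in which the contractile markers differed most. The genotype effect, the difference of mean log2 values per cell fitted over the 8 libraries with diet as a factor (limma, Benjamini-Hochberg adjustment over 9253 genes), was -2.74 ± 0.07 (SE), adjusted p = 0.0149. Only Mfap4 among the genes tested had a lower effect. The adjusted p ranged from 0.00762 to 0.335 over the alternatives and passed 0.05 in 9 of 15.

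Most KO cells held few Eln molecules. The median cell had 4, 1, 1 and 0 Eln UMIs in KO ND, 1M, 2M and 4M, against 26, 13, 13 and 7 in Apoe. An Eln UMI was seen in 91.0%, 62.5%, 54.4% and 12.9% of KO cells, against 99.9%, 99.5%, 98.9% and 91.3% of Apoe cells. Thinned to 2500 UMIs in every cell, so that depth was equal, the shares were 62.6%, 29.8%, 30.0% and 4.88% in KO and 98.3%, 92.7%, 94.1% and 81.0% in Apoe. At equal depth too, each KO library lay under each Apoe library, and KO 4M was lowest. Free RNA can put a UMI in a cell that does not express the gene: in KO 1M the 22 cells with macrophage markers, which should lack Eln, held an Eln UMI in 68.2% of cases (95% exact binomial interval 45.1% to 86.1%), at a median of 9714.5 UMIs per cell, while the other cells did so in 62.4%, at a median of 8881.5. The share of KO 1M cells with an Eln UMI was thus no higher than in those 22 cells and is not read as expression. The level of Eln was 351 CPM in the 22 cells and 578 CPM in the others. The others include 17 cells very rich in Eln, described below. Without these 17 the KO 1M library stood at 239 CPM, under the level of the 22 cells. For Mfap4 the shares were 11 of 22 cells and 53.6%, the levels were 290 and 327 CPM, and its share is not read as expression either. Without the same 17 cells Mfap4 stood at 210 CPM in KO 1M, again under the 22 cells. For Fbln5 the shares were 27.3% and 32.7%, but its level was 516 CPM in the macrophage-marker cells and 136 CPM in the others. That 516 CPM came from 6 of the 22 cells. The KO 1M cell with the most Fbln5 held 123 UMIs, and whether it was among these 6 was not examined. Doublets were not called, so the macrophage-marker cells are no clean measure of free RNA for any of these genes.

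**Figure D1:**
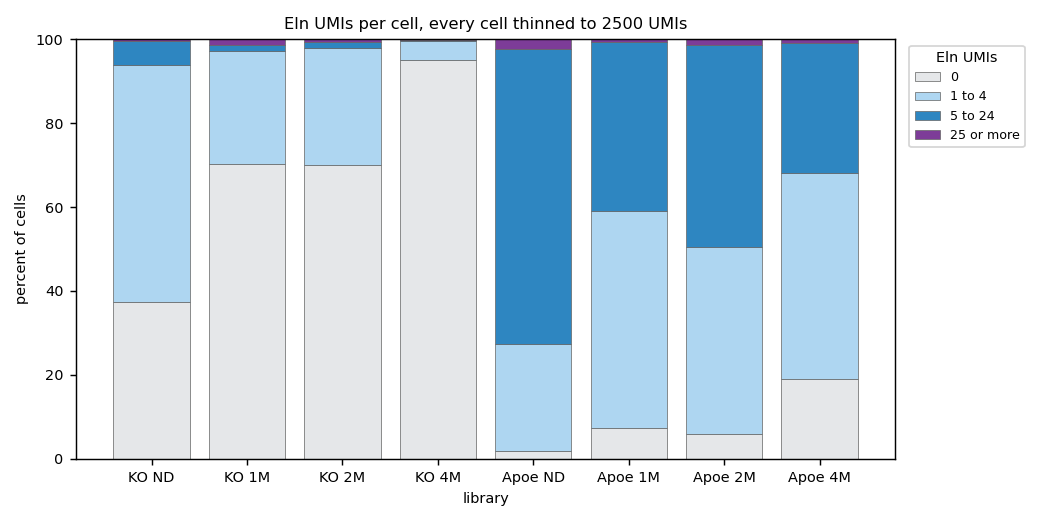
Share of cells (percent of each library, 0 to 100) by the number of Eln UMIs in the cell after thinning every cell to 2500 UMIs, with KO libraries left of Apoe libraries. Cells with no Eln UMI make up 37.4%, 70.2%, 70.0% and 95.1% of the KO libraries from ND to 4M, against 1.70%, 7.26%, 5.90% and 19.0% of the Apoe libraries.

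Eln molecules were also spread unevenly over KO cells. The 10% of cells with the most Eln held 50.2%, 83.0% and 76.7% of the thinned Eln UMIs in KO ND, 1M and 2M, against 26.4%, 30.6% and 31.2% in Apoe ND, 1M and 2M. In KO 4M, where 4.88% of thinned cells had any, they held 100% of them, against 39.996% in Apoe 4M. This share also rises as a gene's mean falls: for the little detected Mfap2 it was 100% in KO ND and in Apoe ND. The variance over the mean of thinned Eln UMIs was 15.2, 37.7, 24.6 and 28.4 in KO ND, 1M, 2M and 4M, against 4.61, 4.07, 5.23 and 8.84 in Apoe. Cells in which Eln made up 1% or more of the molecules (25 or more of the 2500, a limit chosen after seeing the data) are called Eln-rich here. They numbered 5 of 1127, 17 of 1302, 14 of 2253 and 1 of 1577 cells in KO ND, 1M, 2M and 4M, against 31 of 1415, 10 of 1488, 37 of 2659 and 11 of 1235 in Apoe. In KO these few cells held 22.8%, 59.0%, 38.5% and 43.3% of all Eln UMIs of their library, against 9.31%, 3.24%, 7.71% and 10.5% in Apoe. Without them, Eln stood at 554, 239, 228 and 31.2 CPM in KO, against 3195, 1847, 2214 and 1553 CPM in Apoe. The ratio in 1M was then 0.129 in place of 0.302, so the value of 0.302 rests on 17 KO cells. The 239 CPM left in KO 1M was under the 351 CPM of the 22 cells with macrophage markers. The part of free RNA in it was not tested.

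Fbln5 and Mfap4, which help to bring tropoelastin to the fibre, were the members with the lowest ratios on ND. Fbln5 (chr12:101746565-101819055, minus strand) encodes fibulin-5, which binds tropoelastin and lysyl oxidase-like enzymes and without which mice have loose, fragmented elastic fibres. Promoters of 4 of the 9 members were matched by symbol in the RefSeq table (GRCm38.p6). For Fbln5, low in KO on every diet, the 250 bases before each of its 2 listed starts are shown on the minus strand, chr12:101819120-101819369 for the first and chr12:101818485-101818734 for the second, which lies inside the gene as GENCODE bounds it. The first lies outside those bounds. The bases after both Fbln5 starts were not found in a GENCODE transcript of the gene, while those of the other matched members were. Capitals mark the SMAD core motif CAGAC (or GTCTG), which SMAD proteins of the TGF-beta pathway bind, and the GC box GGGCGG (or CCGCCC), bound by SP1; a match is a description of the letters, not a binding site.
Fbln5 first start: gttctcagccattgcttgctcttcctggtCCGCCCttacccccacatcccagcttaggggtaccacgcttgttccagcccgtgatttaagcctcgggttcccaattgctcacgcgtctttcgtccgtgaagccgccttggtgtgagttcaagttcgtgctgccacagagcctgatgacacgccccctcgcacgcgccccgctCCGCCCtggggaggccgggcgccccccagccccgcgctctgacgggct
Fbln5 second start: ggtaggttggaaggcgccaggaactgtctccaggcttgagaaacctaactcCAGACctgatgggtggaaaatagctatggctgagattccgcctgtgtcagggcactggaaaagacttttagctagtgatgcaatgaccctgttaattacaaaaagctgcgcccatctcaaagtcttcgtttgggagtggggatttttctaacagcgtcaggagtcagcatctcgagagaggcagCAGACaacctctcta
The first window held 0 SMAD core motifs and 2 GC boxes, the second 2 SMAD core motifs and 0 GC boxes, and neither held a CArG box, the motif of serum response factor. Of the matched members whose windows are not shown, Fbn1 had 0 SMAD core motifs and 1 GC box. Mfap2 had 0 SMAD core motifs and 2 GC boxes at its first start, and 1 and 0 at its second. Among the 32851 promoter windows of the same length in the table, 42.2% held the SMAD core motif, 32.7% the GC box and 1.47% a CArG box, so matches to the first and second are common.

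Fbln5 stood at 62.4, 144, 180 and 97.0 CPM in KO ND, 1M, 2M and 4M. In Apoe it stood at 1080, 928, 938 and 979 CPM. All KO libraries lay far under all Apoe libraries; within KO the ND library was the lowest, and within Apoe it was the highest. The ratio KO over Apoe was 0.0578 (0.0537 to 0.0621) in ND, 0.155 (0.148 to 0.163) in 1M, 0.192 (0.184 to 0.199) in 2M and 0.0992 (0.0942 to 0.104) in 4M. The genotype effect was -2.41 ± 0.15, adjusted p = 0.0439 (limma), close to the threshold of 0.05. At equal depth 11.7%, 13.5%, 22.1% and 15.9% of KO cells held a Fbln5 UMI, against 89.3%, 84.7%, 84.3% and 83.5% of Apoe cells; unthinned, the shares were 36.6%, 32.6%, 42.3% and 39.8% in KO and 99.6%, 98.9%, 97.9% and 96.2% in Apoe.

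Mfap4 (chr11:61485431-61488900, plus strand) encodes a microfibril-associated glycoprotein that binds tropoelastin and fibrillin. It stood at 62.1, 327 and 128 CPM in KO ND, 1M and 2M and was listed at 0 in KO 4M, as the tables list any gene seen in under 5% of a library's cells. In Apoe it stood at 2168, 1892, 2495 and 1340 CPM. The groups did not overlap, and KO 1M was the highest KO library. The ratio was 0.0286 (0.0266 to 0.0308) in ND, 0.173 (0.167 to 0.179) in 1M and 0.0515 (0.0494 to 0.0536) in 2M, and no ratio is given for 4M. In ND it was the lowest ratio of the 9608 genes listed in both libraries, with Fbln5 next to it, and in 2M it was again the lowest, of 8711 genes. The genotype effect was -3.28 ± 0.18, adjusted p = 0.0307 (limma), the lowest of all genes tested, with KO 4M entering the fit at 0.

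Of the microfibril genes, Mfap5 had a lower level in KO on every diet by far more than its counting error, while Fbn1, Mfap2 and Emilin1 were less than 2-fold from Apoe up to 2M. Mfap5 (chr6:122505845-122529290, plus strand), a microfibril-associated glycoprotein, had 308, 243, 164 and 16.0 CPM in KO and 864, 453, 491 and 286 CPM in Apoe, from ND to 4M. Within every diet KO was lower, but the genotypes overlapped, since KO ND was above Apoe 4M. The ratio ran from 0.537 (0.513 to 0.561) in 1M to 0.0560 (0.0495 to 0.0633) in 4M, and the genotype effect was -1.11 ± 0.05, adjusted p = 0.0222 (limma).

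Fbn1 (chr2:125300594-125507993, minus strand) encodes fibrillin-1, the backbone of the microfibril, mutated in Marfan syndrome. It had 106, 79.6, 67.5 and 32.7 CPM in KO and 123, 101, 106 and 130 CPM in Apoe. KO was lower in each diet, with a ratio of 0.860 (0.799 to 0.926) in ND and 0.252 (0.228 to 0.278) in 4M, and KO ND overlapped the Apoe libraries. Its genotype effect of -0.23 ± 0.08 did not pass the test (adjusted p = 0.318, limma).

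Mfap2 (chr4:141010418-141015984, plus strand), the other microfibril-associated glycoprotein of the pair with Mfap5, was the least detected member, with 146 to 259 UMIs in a KO library and 168 to 312 in an Apoe library. It had 14.0, 14.9, 14.2 and 7.98 CPM in KO and 20.9, 17.6, 15.8 and 17.9 CPM in Apoe. The values of the groups did not overlap, by the small margin between KO 1M and Apoe 2M. The intervals of these libraries did overlap (12.8 to 17.2 against 14.1 to 17.7 CPM). The interval of the ratio included 1 in 1M (0.843, 0.691 to 1.03) and in 2M (0.897, 0.758 to 1.06), so at this depth no difference was detectable there. In ND the ratio was 0.672 (0.552 to 0.815), and in 4M it was 0.447 (0.355 to 0.561). Its genotype effect was -0.03 ± 0.02, adjusted p = 0.445 (limma).

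Emilin1 (chr5:30913402-30921277, plus strand) encodes a glycoprotein at the interface of elastin and microfibrils that binds the TGF-beta precursor and limits its processing. It was the one member above Apoe in a KO library, and its 250 bases before the RefSeq start (chr5:30913536-30913785, plus strand, GRCm38.p6) are shown with the same motifs in capitals; the window lies inside the gene as GENCODE bounds it.
Emilin1: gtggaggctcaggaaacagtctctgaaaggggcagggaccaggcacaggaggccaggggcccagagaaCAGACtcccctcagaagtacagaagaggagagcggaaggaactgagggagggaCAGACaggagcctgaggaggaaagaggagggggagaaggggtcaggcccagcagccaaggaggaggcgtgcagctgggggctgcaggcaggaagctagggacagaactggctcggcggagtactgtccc
The window held 2 SMAD core motifs and 0 GC boxes. Its level was 120, 95.5, 163 and 541 CPM in KO ND, 1M, 2M and 4M. In Apoe it was 156, 143, 153 and 197 CPM. KO was lower than Apoe in ND and 1M, close to it in 2M and far above every other library in 4M, with ratios of 0.771 (0.721 to 0.824), 0.668 (0.621 to 0.719), 1.06 (1.007 to 1.12) and 2.75 (2.62 to 2.89). The median KO 4M cell held 5 Emilin1 UMIs, while the median was 1 in each of the other 7 libraries. The genotype effect was 0.20 ± 0.31, adjusted p = 0.780 (limma), and turned to -0.16 without KO 4M. KO 4M was also the library with the most chondrocyte marker RNA (34593 CPM), whose part in the Emilin1 level was not tested.

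The crosslinking enzymes differed from each other. Lox (chr18:52516067-52529867, minus strand) encodes lysyl oxidase, the copper enzyme that starts the crosslinks of elastin and collagen, and mice without it die of ruptured aortas around birth. It had 109, 101, 68.6 and 23.1 CPM in KO and 302, 236, 283 and 256 CPM in Apoe, from ND to 4M, with no overlap. The ratio was 0.363 (0.341 to 0.386) in ND, 0.429 (0.401 to 0.458) in 1M, 0.243 (0.228 to 0.258) in 2M and 0.0904 (0.0813 to 0.1002) in 4M. The genotype effect was -0.86 ± 0.03, adjusted p = 0.0163 (limma). Loxl1 (chr9:58287738-58313186, minus strand), a lysyl oxidase-like enzyme that works on elastin together with fibulin-5, had 293, 228, 211 and 18.8 CPM in KO and 316, 304, 310 and 234 CPM in Apoe. Up to 2M its ratio was between 0.680 (0.653 to 0.708) and 0.927 (0.887 to 0.970), and in 4M it was 0.0804 (0.0716 to 0.0901), so the KO 4M library stood alone; the other KO libraries overlapped the Apoe libraries or lay close under them. Its genotype effect of -0.44 ± 0.19 did not pass the test (adjusted p = 0.408, limma).

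**Figure D2:**
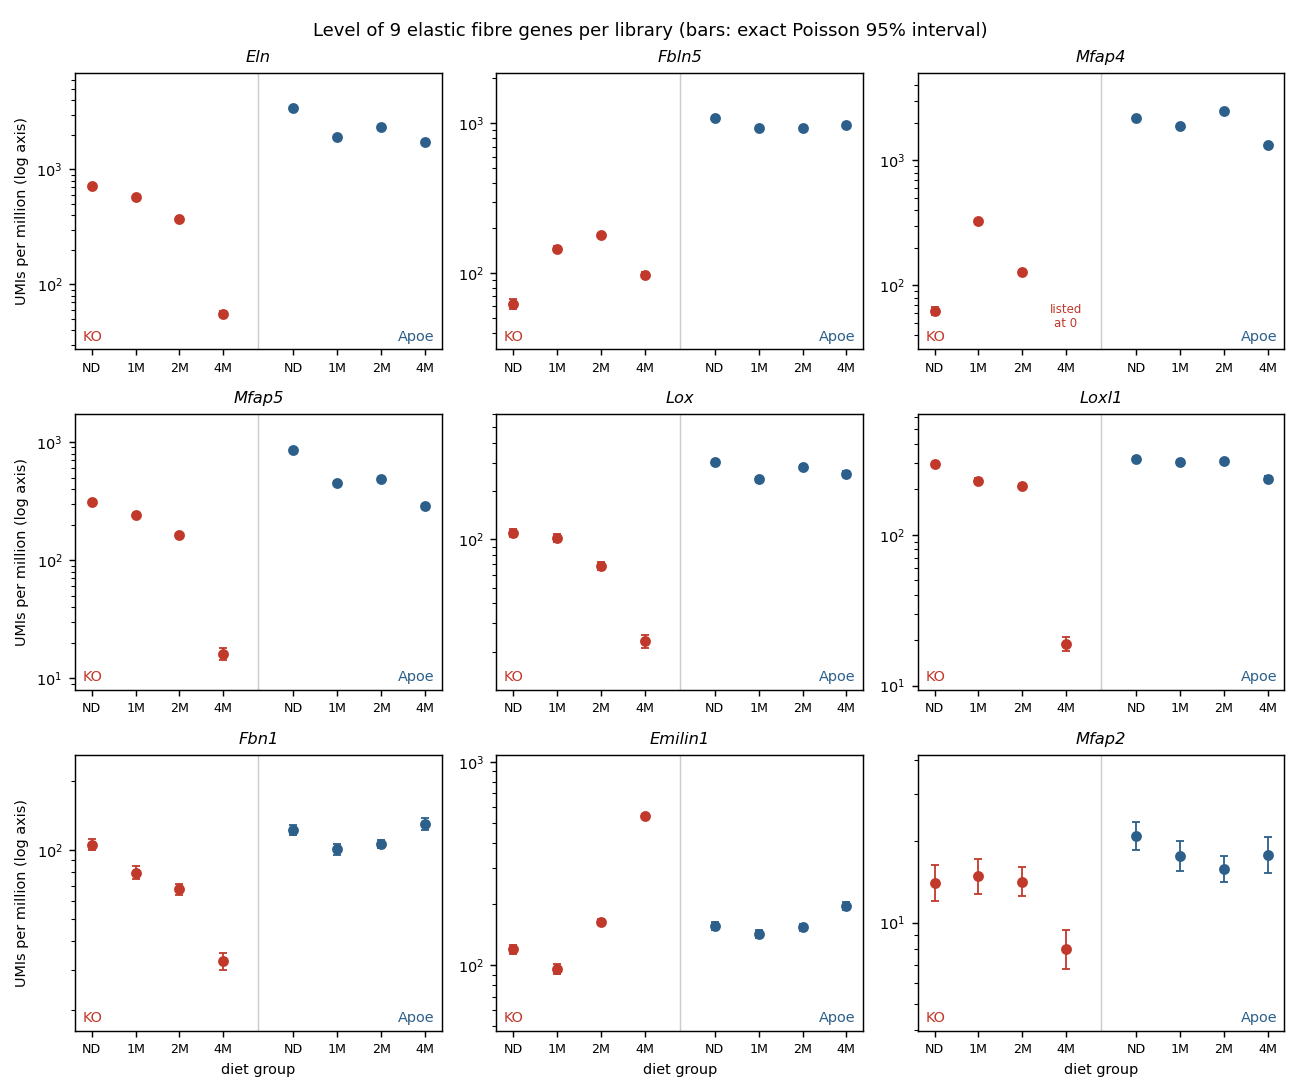
Level of each of the 9 genes in CPM (log axis, a scale of its own in each panel) in the 4 KO libraries (left) and the 4 Apoe libraries (right), by diet group; each point is 1 library and the bars are exact Poisson 95% intervals. The points of Eln, Fbln5, Mfap4, Lox and Mfap2 show no overlap between genotypes, but the intervals of Mfap2 do. The share of all genes without overlap was not counted. Loxl1 is low in KO 4M alone, and Emilin1 is highest in KO 4M at 541 CPM.

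Over the 4 diets, 5 of the 9 members were lower in KO at an adjusted p under 0.05 (Eln, Fbln5, Mfap4, Mfap5 and Lox), where 0.13% of all genes tested were lower (12 of 9253) and 0.0216% were higher, and no member was higher. The members were chosen with earlier results of these data known, so contrasts with all genes here and below are a description. The 3 lowest effects of all 9253 genes were those of Mfap4, Eln and Fbln5. The median effect was -0.86 over the 9 members and 0.01 over all genes tested. Without the library KO 4M all 5 passed, as they did without the Eln-rich cells. Leaving out ND kept 1 of them past the threshold, leaving out 1M or 2M kept 0, and so did summing UMIs over each library before taking logs.

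Within single diets, which have no test, 5 of 9 members were at least 2-fold lower in KO in ND, where 1.56% of genes listed in both libraries were 2-fold lower and 0.864% 2-fold higher. In 1M there were 4 of 9 (0.899% of genes lower, 0.866% higher), and in 2M 5 of 9 (2.5% lower, 1.31% higher). In 4M, 7 of the 8 members listed in both libraries were at least 2-fold lower and Emilin1 was 2-fold higher, but there 18.2% of all genes were 2-fold lower and 7% higher, and the median log2 ratio of all genes was -0.25. The median log2 ratio of the members was -1.46, -0.90, -1.58 and -3.40 from ND to 4M.

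**Figure D3:**
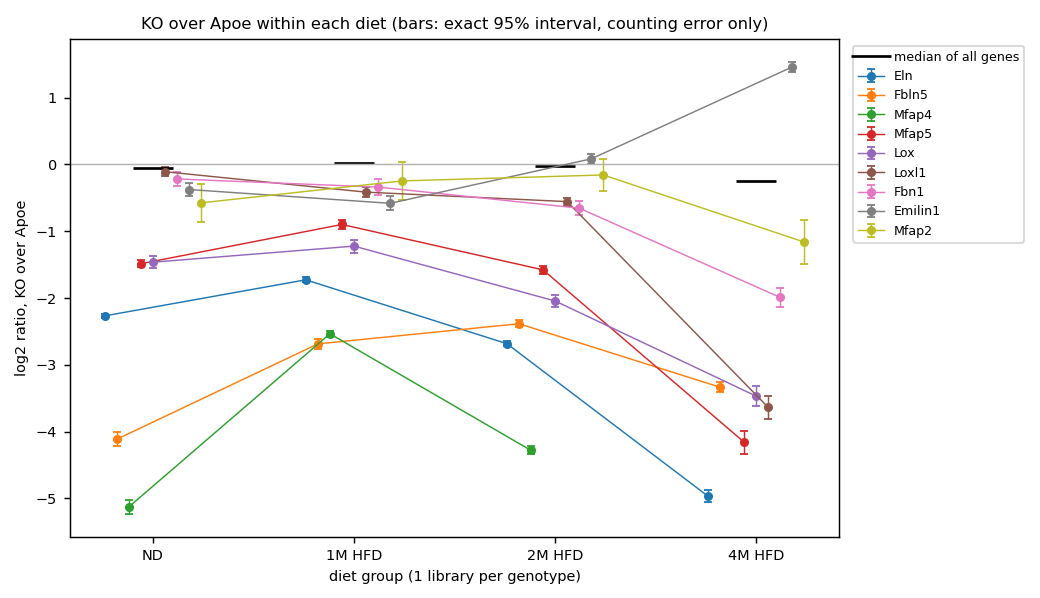
Log2 ratio KO over Apoe of each member (points, joined by lines) in each diet group, with exact 95% intervals for counting error and the median of all genes listed in both libraries as a black bar; Mfap4 has no value in 4M. Mfap4 and Fbln5 are lowest in ND, Eln is lowest in 4M, and Emilin1 alone ends above 0.

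The change with months on diet was fitted with a slope for each genotype on the means of the log2 values of the time-course tables, which were normalized separately for each genotype. Within KO, 5 of 9 members fell (15.7% of all genes fell) and Emilin1 rose (6.8% of all genes rose). The slopes per month were -0.45 ± 0.10 for Eln (adjusted p = 0.0362), -0.38 ± 0.06 for Mfap5 (0.0224), -0.38 ± 0.04 for Loxl1 (0.0109), -0.16 ± 0.02 for Lox (0.0133) and -0.12 ± 0.03 for Fbn1 (0.0348), and that of Emilin1 was 0.41 ± 0.10 (0.0420; all limma). Fbln5 had a slope of 0.05 ± 0.03 (adjusted p = 0.338) and Mfap4 one of -0.14 ± 0.11 (0.347). Without the library KO 4M no member's slope within KO passed, and the slope of Emilin1 was then 0.01. Over the first 3 diets alone, Eln in KO stood at 714, 574 and 368 CPM and Lox at 109, 101 and 68.6 CPM; for Lox the interval of the ratio of 1M over ND included 1 (0.926, 0.856 to 1.001).

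Within Apoe no member's slope passed, as for all genes (0% called by limma; 1165 of 9253 genes had an unadjusted p under 0.05). The lowest slopes were those of Mfap5 (-0.35 ± 0.06, adjusted p = 0.252), Eln (-0.34 ± 0.10, 0.287) and Mfap4 (-0.32 ± 0.11, 0.324). The difference of slopes between genotypes, KO minus Apoe, passed for no gene (0% called by limma; 1954 genes had an unadjusted p under 0.05), so no member was shown to change differently with diet in KO and Apoe. It was -0.26 ± 0.05 for Loxl1 and 0.39 ± 0.14 for Emilin1 (adjusted p = 0.226 for both). With a slope common to both genotypes Eln (-0.40 ± 0.07, adjusted p = 0.0397), Mfap5 (-0.37 ± 0.04, 0.0289) and Lox (-0.14 ± 0.01, 0.0289) fell, where 5.4% of all genes fell, and none of these calls was kept when the libraries of any 1 diet were left out.

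Cells of each library were also split into 4 bins of equal size by the share of their UMIs that came from the 13 contractile markers. In KO 1M, Eln stood at 1786 CPM in the bin with the lowest contractile share and at 205, 126 and 133 CPM in the others, in rising order of contractile share. Fbln5 had 417, 66.4, 43.5 and 39.8 CPM in the same bins, and Mfap4 937, 163, 96.9 and 87.1 CPM. In KO 2M Eln stood at 874, 189, 169 and 169 CPM and Fbln5 at 415, 106, 91.3 and 72.4 CPM. The 17 Eln-rich cells of KO 1M all lay in the least contractile bin and held 4055 of its 5491 Eln UMIs; without them that bin had 498 CPM of Eln, 254 CPM of Fbln5 and 503 CPM of Mfap4. All 14 of KO 2M lay there too, and without them it had 369 CPM of Eln and 311 CPM of Fbln5. In KO 1M and 2M that bin was above the others for these genes with or without these cells. KO ND differed: its 5 Eln-rich cells also lay in the least contractile bin, where Eln stood at 1200 CPM, against 590, 491 and 550 CPM. Without them that bin had 583 CPM of Eln, 48.3 CPM of Fbln5 and 37.5 CPM of Mfap4. The next bin had 590, 56.1 and 60.7 CPM, so the excess in KO ND rested on these 5 cells. In Apoe 1M the order was weaker for Eln, with 2083, 1868, 1895 and 1755 CPM, while Fbln5 had 940, 960, 919 and 894 CPM and Mfap4 was lowest in the first bin, with 1546, 1941, 2012 and 2056 CPM.

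The 4M libraries had another order. In KO 4M, where the contractile share was at most 0.0696% of UMIs in the lower 3 bins, Eln had 14.8, 9.21, 12.1 and 211 CPM from the lowest to the highest bin. Loxl1 had 6.58, 5.95, 9.74 and 60.1 CPM there, and Mfap5 2.50, 1.53, 3.18 and 65.4 CPM. A single Eln-rich cell held 436 of the 836 Eln UMIs of the highest bin, and without it the bin had 101 CPM of Eln, 58.3 CPM of Loxl1 and 52.0 CPM of Mfap5. These 3 genes were thus highest in the bin with the most contractile transcripts with or without that cell, while Emilin1 was high in all bins (557, 544, 611 and 437 CPM). In Apoe 4M Mfap4 stood apart in the lowest bin, with 347 CPM against 1691, 1834 and 1711 CPM in the others. Lox had the opposite order, with 441, 269, 150 and 118 CPM from the lowest to the highest bin in Apoe 4M and 388, 310, 282 and 226 CPM in Apoe ND.

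**Figure D4:**
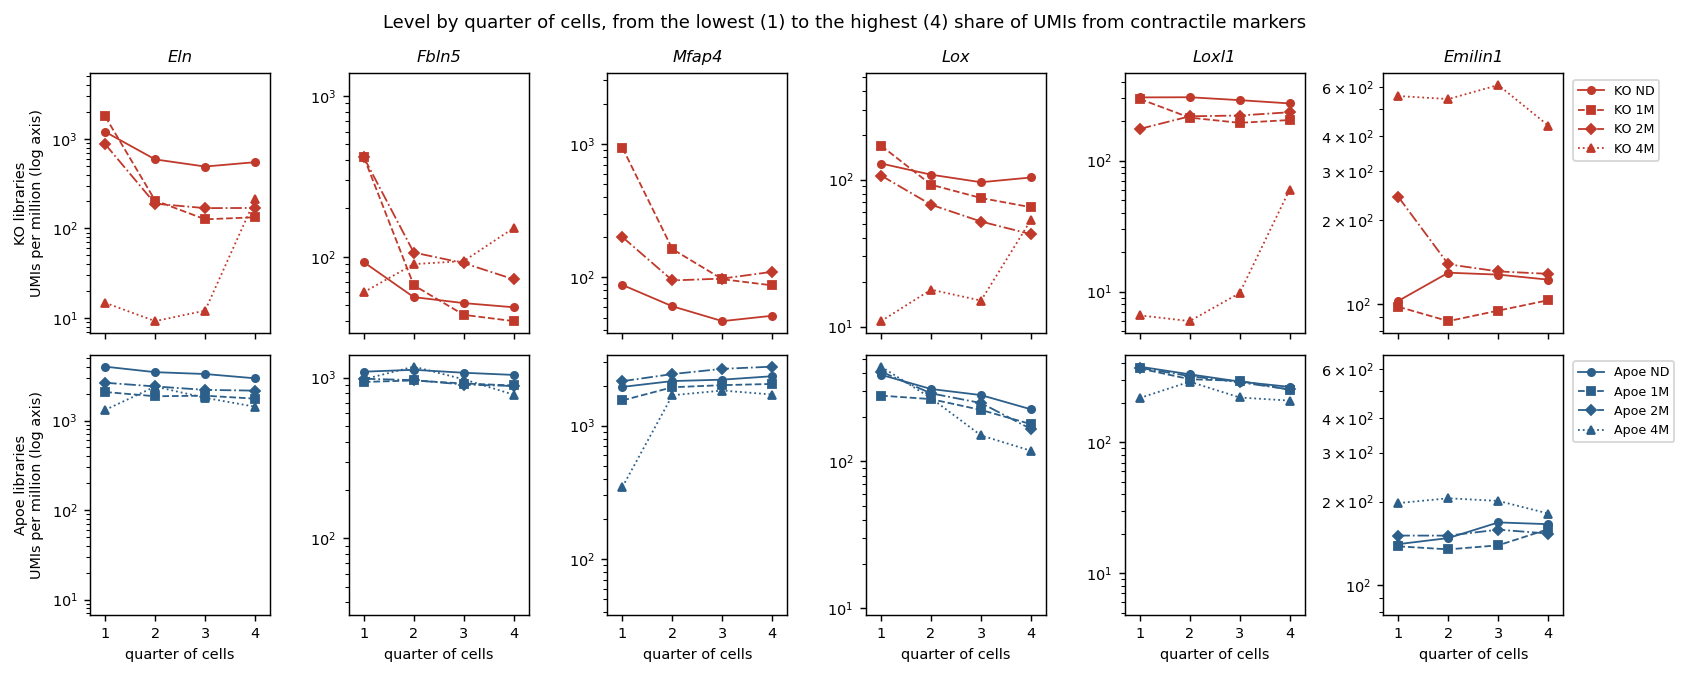
Level of 6 members in CPM (log axis, shared within a column) in 4 equal bins of the cells of each library, from the lowest (1) to the highest (4) share of UMIs from contractile markers; KO libraries in the upper row, Apoe libraries in the lower row. In KO 1M, Eln, Fbln5 and Mfap4 are highest in bin 1 (1786, 417 and 937 CPM), of whose 5491 Eln UMIs 17 Eln-rich cells held 4055, whereas in KO 4M Eln and Loxl1 are highest in bin 4 (211 and 60.1 CPM), of whose 836 Eln UMIs 1 cell held 436.

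The Eln-rich KO cells carried other members too. In the 17 cells of KO 1M, Fbln5 stood at 2846 CPM, against 99.8 CPM in the other cells of that library, Mfap4 at 7406 against 210 CPM, Mfap5 at 2107 against 212 CPM and Lox at 677 against 91.8 CPM. Each of the 17 cells held UMIs of Fbln5, Mfap4, Mfap5, Lox and Loxl1. Emilin1 had 129 CPM there, against 94.96 CPM in the other cells. In the 14 cells of KO 2M, Fbln5 had 4275 CPM, against 150 CPM in the rest, Mfap4 2312 against 113 CPM and Lox 758 against 63.6 CPM. The 5 cells of KO ND had 2160 CPM of Fbln5, against 51.0 CPM in the rest, and 2445 CPM of Mfap4, against 49.1 CPM. In these cells Fbln5 was thus above the mean of every Apoe library, taken over all its cells, and Mfap4 was above at least 3 of the 4. The Eln-rich cells of Apoe ND, 1M, 2M and 4M had 1214, 1829, 1451 and 1594 CPM of Fbln5, below those of KO ND, 1M and 2M. Their Mfap4 was at 2449, 2705, 3113 and 2443 CPM. Against these values Mfap4 was higher in KO 1M, lower in KO 2M and close to the lowest in KO ND.

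Other genes marked the same cells, named here after their values were seen. Acta2, a contractile marker, had 2794 CPM in the Eln-rich cells of KO 1M, against 23759 CPM in the rest, and 2547 against 21622 CPM in KO 2M. The fibroblast marker Dcn was at 2871 CPM in those of KO 1M, against 222 CPM in the rest, but at 121 against 2112 CPM in KO 2M, so the cells of the 2 libraries differed. The 5 pericyte markers summed to 2866 CPM in those of KO 1M, against 347 CPM in the rest, and to 644 against 382 CPM in KO 2M. Pmepa1, a gene induced by TGF-beta signalling, had 675, 806 and 857 CPM in the Eln-rich cells of KO ND, 1M and 2M, against 46.5, 72.5 and 54.5 CPM in the rest. In Apoe, the Eln-rich cells had 672, 533 and 571 CPM of Pmepa1 in ND, 1M and 2M, against 467, 453 and 455 CPM in the rest, so that there the Eln-rich cells stood less far above the rest. The Eln-rich cells were picked by Eln itself and counted 37 in the 4 KO libraries, so these values are a description, and doublets were not called. None of them was among the cells with macrophage markers.

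**Figure D5:**
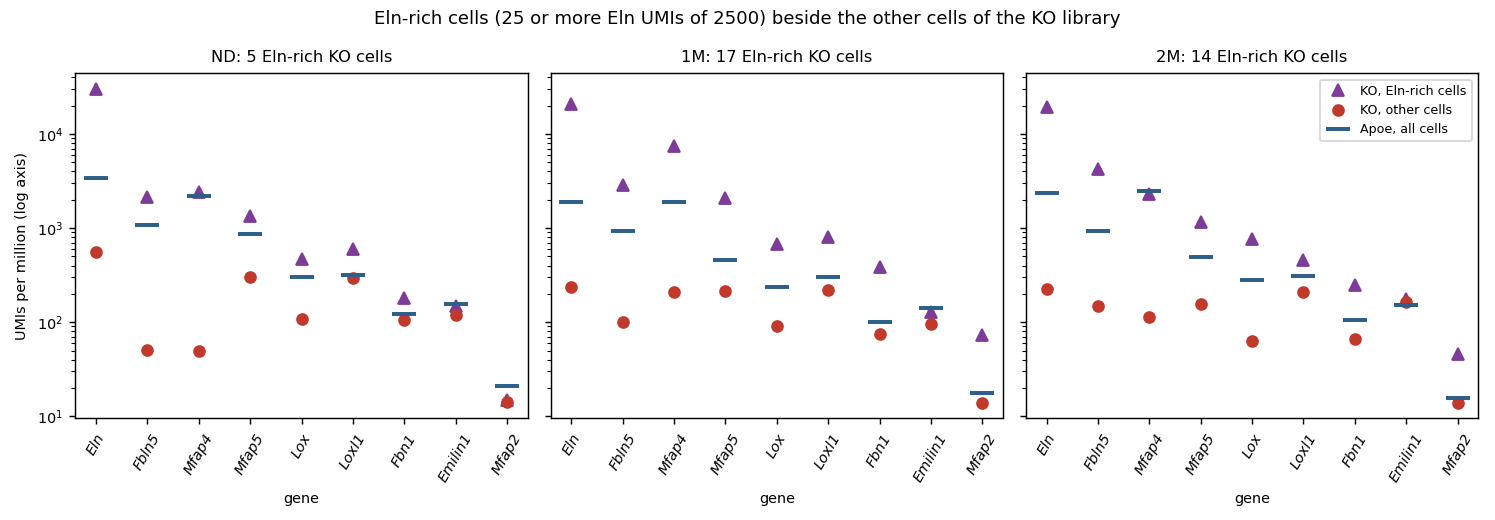
Level of the 9 members in CPM (log axis) in the Eln-rich cells of a KO library (triangles), in its other cells (circles) and, for scale, in all cells of the Apoe library of the same diet (bars), for ND, 1M and 2M. The triangles lie above the circles for Eln, Fbln5, Mfap4, Mfap5, Lox, Loxl1 and Fbn1 in all 3 diets, and near them for Emilin1.

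Across single cells of a library the members were weakly correlated on thinned counts. The median Spearman correlation over pairs of members, on counts thinned to 2500 UMIs, was 0.02, 0.07, 0.03 and 0.06 in KO ND, 1M, 2M and 4M, against 0.02, 0.02, 0.03 and 0.04 in Apoe, over 1127 to 2659 cells and 36 pairs (28 in KO 4M). Thinned counts are sparse, cells of a library share its depth and free RNA, and values this low are no finding. The highest pair was Eln with Mfap4 in Apoe 4M, at 0.38; there Mfap4 correlated at 0.41 with Acta2 and at -0.43 with Dcn. In KO 1M the highest was Fbln5 with Mfap4 at 0.26, and in KO 4M Eln with Lox at 0.22. Emilin1 correlated with the cartilage collagen Col2a1 at 0.29 in KO 4M, where Loxl1 correlated with the contractile gene Myh11 at 0.31. On the deposited log2 values, which were not thinned, the median Pearson correlation over pairs of members was higher in every library. It was 0.08, 0.23, 0.10 and 0.21 in KO ND, 1M, 2M and 4M, against 0.09, 0.07, 0.09 and 0.13 in Apoe.

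Between libraries, Eln followed Lox most closely among the members (r = 0.99 of log2(CPM + 1) over the 8 libraries), then Mfap4 and Mfap5 (0.96 each), while Emilin1 correlated negatively with every other member, down to -0.90 with Loxl1. These 8 points include the KO 4M library that stands apart. Of 7994 genes listed in all 8 libraries, the 3 most like Eln were Tcf7l1, Fstl1 and Rubcn (r = 0.996, 0.994 and 0.993), and the 3 most like Loxl1 were Tead3, Postn and Mcam (0.999, 0.999 and 0.997). Those most like Fbln5 were Ldlrad4, Pmepa1 and Fam160b1 (0.980, 0.974 and 0.966). The highest for Mfap4 was Rcor3 (0.994), for Mfap5 Arhgef10l (0.994), for Fbn1 Tacc2 (0.993) and for Mfap2 Fcho2 (0.991).

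Other genes of the elastic fibre were tested for genotype in the same fit. Of 32 genes for microfibril and elastic fibre assembly, 25 were in the tables and 22 were tested, and 0 passed in either direction (limma, against 0.13% of all genes lower and 0.0216% higher). Their effects were below 0 in 16 of 22, with a median of -0.13, and 8 had an unadjusted p under 0.05. Nearest the threshold, and named after their values were seen, were Ltbp3, which encodes a TGF-beta binding protein of the matrix, at -0.34 ± 0.02 (adjusted p = 0.0578), and the integrin subunit Itgb5 at -0.94 ± 0.08 (0.0952). The most abundant were Ltbp1 (-0.95 ± 0.51, adjusted p = 0.499), Fn1, fibronectin (0.45 ± 0.32, 0.578), Itga8 (-0.94 ± 0.45, 0.455) and Npnt (-0.68 ± 0.29, 0.403). Of the 6 tested genes for other lysyl oxidases and their copper supply 0 passed (limma; 1 at an unadjusted p under 0.05), of which Atox1, a copper chaperone, had an effect of 0.23 ± 0.04 (adjusted p = 0.157) and Pcolce, an enhancer of procollagen processing, 0.80 ± 0.49 (0.543), while Bmp1 (0.02 ± 0.02) and Loxl3 (-0.02 ± 0.05) were near 0. Of the 5 tested genes for elastin folding and its receptor 0 passed (limma; 1 at an unadjusted p under 0.05), with Serpinh1, a collagen chaperone, at 0.27 ± 0.51 (0.820) and Ctsa, which protects a subunit of that receptor, at 0.16 ± 0.05 (0.287). Among the genes for elastin-degrading enzymes and their inhibitors, 1 of the 11 tested passed, lower in KO; the cystatin Cst3 did not pass (0.50 ± 0.60, adjusted p = 0.715, limma), nor did the cathepsins Ctsb (0.04 ± 0.11, 0.880) and Ctsl (-0.75 ± 0.21, 0.261) or Timp2 (0.09 ± 0.06, 0.572).

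Within KO some of these lists had members that changed with months on diet; without KO 4M no slope within KO passed for any gene (limma; 1500 at an unadjusted p under 0.05). In the assembly list 5 genes fell, with slopes per month of -0.73 ± 0.11 for Itga8 (adjusted p = 0.0234), -0.68 ± 0.17 for Ltbp1 (0.0430), -0.50 ± 0.09 for Npnt (0.0272), -0.36 ± 0.09 for Ltbp4 (0.0420) and -0.06 ± 0.01 for Itgav (0.0476; all limma), against 15.7% of all genes. Itga8 stood at 843, 775, 718 and 32.0 CPM in KO, against 1029, 1149, 987 and 962 CPM in Apoe. In the degradation list 5 genes rose, the cystatin Cst3 (1.006 ± 0.19, adjusted p = 0.0312), Timp1 (0.71 ± 0.12, 0.0255), the gelatinase Mmp2 (0.48 ± 0.11, 0.0379), the elastolytic protease Ctsk (0.24 ± 0.04, 0.0286) and Mmp14 (0.05 ± 0.01, 0.0401; all limma), and Ctsl fell (-0.30 ± 0.07, 0.0411), against 6.8% of all genes that rose. Ctsk stood at 8.11, 16.8, 35.4 and 135 CPM in KO ND, 1M, 2M and 4M, against 8.76, 6.66, 10.3 and 26.3 CPM in Apoe, and Mmp2 at 22.1, 35.9, 65.0 and 389 CPM, against 21.4, 14.0, 16.9 and 115 CPM. Both were thus highest in the 4M library of either genotype, the library with the most chondrocyte and fibroblast marker RNA; the part of those cells was not tested. Of the lysyl oxidase list Pcolce (0.72 ± 0.15, adjusted p = 0.0343) and Loxl3 (0.06 ± 0.01, 0.0415) rose and Loxl2 fell (-0.06 ± 0.01, 0.0157; limma), the last with KO 4M listed at 0.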

How the data were processed

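Single smooth muscle cells from 8 libraries (2 genotypes, 4 diets) were analysed from 6 deposited tables: 1 per diet with both genotypes and 1 time-course table per genotype. Each cell's expression was deposited on a log2 scale after TMM scaling, per the labels; STAR, UMI-tools, Subread 1.6.0 with featureCounts and the build GRCm38 are named in the submitters' processing notes. The labels name tables without Apoe and Tgfbr2, yet Tgfbr2 has values in the Apoe time course. Cells named "dko" were matched to KO. In the time-course tables the cell name also gave the diet. In the tables per diet it did not, and the diet came from the table's name, which the sample descriptions quote. Whole UMIs were recovered from 100% of values (tolerance 0.01), and genes seen in under 5% of a library's cells are listed at 0. No cell was removed.

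Levels have exact Poisson and shares of cells exact binomial (Clopper-Pearson) 95% intervals, for counting error only. Library means of the log2 values were tested with limma 3.58.1 (R 4.3.3) after a filter that kept 9253 genes with a mean share of cells of 5% or more, with Benjamini-Hochberg adjustment and a threshold of 0.05; effects include zeros and are not folds. The diet tables gave the genotype effect and the time-course tables the slopes. The error is the spread of libraries around the additive or linear model, with 3 residual degrees of freedom for the genotype effect, 5 for the common slope and 4 for separate slopes. The fits were tested on simulated data. Symbols and locations are from GENCODE vM21.

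The 9 members and the lists were chosen with earlier results of these data known. Named genes of a list are those past the threshold (at most 6, by size) and up to 4 of the highest level; some genes these rules name are not reported here. Alternatives covered scale, pseudocount, scaling, table, filter, depth, cells, libraries, diet term and time scale; those on Eln-rich cells (contractile bins included) and on slopes within KO were chosen after seeing the data.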

Additional observations from a re-analysis of the deposited data

Results flagged for a closer look

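Fbln5 on HFD lay on opposite sides of ND in the 2 genotypes. Every KO library on HFD was above KO ND, with log2 ratios HFD over ND of 0.64 to 1.52 and a mean of 1.12. Every Apoe library on HFD was below Apoe ND, with log2 ratios of -0.22 to -0.14 and a mean of -0.19. The 3 ratios of a genotype share 1 ND library, so a single low KO ND or high Apoe ND library sets all 3 signs of its genotype. The mean log2 ratio was thus 1.31 higher in KO than in Apoe. The opposite signs themselves were not tested, since each group of a genotype and diet has 1 library; the fitted difference of slopes per month was 0.15 ± 0.05 and did not pass (adjusted p = 0.226, limma), nor did the slope within KO (0.05 ± 0.03, adjusted p = 0.338) or within Apoe (-0.10 ± 0.03, 0.324). Eln-rich cells held 18.7%, 31.9%, 17.2% and 4.28% of the Fbln5 UMIs in KO ND, 1M, 2M and 4M, and without them Fbln5 stood at 51.0, 99.8, 150 and 93.0 CPM, still higher in each KO library on HFD than in KO ND.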

How the results depend on the processing

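With 8 libraries and 1 per group, few residual degrees of freedom limit every call. The members' genotype effects kept their sign under all 15 alternatives (14 for Mfap4, not listed in all libraries), except Emilin1 (-0.163 without KO 4M, -0.163 to 0.361 when 1 diet was left out); the cause was not tested. The genotype effect called 14 genes, 5 of them members. It called 5 genes on log2(CPM + 1), 0 on log2(CPM + 10), 4 with median-of-ratios scaling and 0 members on these 3 scales. It called 8 genes (3 members) among genes listed in all libraries, 3 members on thinned cells, 2 members with no diet term, 313 genes without KO 4M, and 0 to 382 genes (0 to 5 members) when 1 diet was left out. By limma 1188 genes had an unadjusted p under 0.05 on log2(CPM + 10).

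The common slope called 514 genes (3 members), but 1, 9 and 0 genes on those 3 scales (0 members), 1346 from the other tables, 0 on thinned cells (0 members), 0 with rank of time (0 members) and 0 genes (0 members) in each run without 1 diet. It reversed for Fbln5 on the 3 scales (0.0393, 0.0339 and 0.0779) and, when 1 diet was left out, ran from -0.346 to 0.0530 for Mfap4 and from -0.0267 to 0.324 for Emilin1, turning sign without 4M.

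The slope within KO called 2084 genes, 5 members falling and 1 rising: 750 and 2 falling on thinned cells, 87, 1 and 0 with rank of time, 0 rising from the other tables, 0 of each without KO 4M, and 0 to 3065 genes, 0 to 4 falling and 0 to 1 rising without 1 diet. For Mfap4 it was 0.0841 without KO 4M and -0.281 to 0.0841 when 1 diet was left out.

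The difference of slopes called 0 genes, and 0 to 7 without 1 diet. It reversed for Mfap4 on the 3 scales (-1.556, -0.741 and -1.558), for Mfap5 (0.0343 thinned, -0.0808 to 0.0625 when 1 diet was left out), for Mfap2 (0.00374 thinned, -0.0122 to 0.0197) and for Emilin1 (-0.00435 without KO 4M). Of 280 correlations over cells, 196 lay outside their 95% interval as Pearson's r on log2 values, against 84 inside it. That interval takes the cells of a library as independent, which they are not. The switch also changed both the measure and the depth, so the 2 cannot be told apart. Of 72 library levels, 1 moved beyond counting error without cells of other types and 21 without the Eln-rich cells. Thinning moved 71 of 72 shares of cells. The genotype effect pairs libraries by diet; with no diet term it called 11 genes. No paired analysis was possible by replicate number because the labels give none.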
